A study of Homo sapiens with 28 samples.

Results

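Described here, across a study of cell detachment, are the integrin chain genes ITGA5, ITGAV, ITGB1, ITGB3, ITGB5 and ITGB8, whose protein products pair into receptors for fibronectin and vitronectin. These 6 members were taken by gene symbol from a table of 58735 genes, 26 of which encode integrin chains, and all 6 were found and passed the filter on low counts. The cells were MDA-MB-231, an established human triple-negative breast cancer line with a mesenchymal character, carrying either an empty vector (EV) or a vector that overexpresses the actin-binding protein tropomyosin 2.1 (Tpm2.1). One line of each kind was used, grown in serum-containing medium with puromycin, so both lines share the selection. Attached cells of both lines were taken after 6 h (hours) on tissue culture plates. Suspended cells were taken after 5 h and 1, 2 and 4 d (days) on ultra-low attachment plates, and suspended Tpm2.1 cells were split at each time with Annexin V beads into an apoptotic and a non-apoptotic fraction. No bead step is stated for the EV line or for attached cultures, so bead handling and line cannot be told apart when suspended lines are compared. In the deposited table the attached libraries carry other numbers than the suspended ones, and no source used here says whether they were prepared together, so preparation and attachment cannot be told apart when suspended and attached cells are compared. Each of the 14 groups had 2 libraries, called biological replicates in the labels with no word on how the cultures were kept apart. The p-values therefore measure only the spread between libraries of a group, pooled over all 14 groups. That spread was uneven. The chi-square over genes between a group's 2 libraries, per degree of freedom, ran from 1.76 (EV at 1 d) to 8.93 (apoptotic at 2 d). A pooled error can thus be too small for some groups and too large for others.

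Integrins are heterodimers of an α and a β chain that link the extracellular matrix to actin. The α5 chain pairs with β1 alone, whereas αv pairs with β1, β3, β5, β6 or β8, and β1 pairs with many α chains. Ligand binding recruits talin and kindlin to the β tail and engages focal adhesion kinase, and the loss of these survival signals on detachment is the classic trigger of anoikis, the death of cells that have lost their matrix. Transcript levels do not measure chains at the cell surface.

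Per the deposited table, ITGA5 (ENSG00000161638) lies on chromosome 12 from 54395261 to 54419460 on the minus strand, and ITGAV (ENSG00000138448) on chromosome 2 from 186590065 to 186680901 on the plus strand. ITGB1 (ENSG00000150093) lies on chromosome 10 from 32900319 to 33005792, minus strand, and ITGB5 (ENSG00000082781) on chromosome 3 from 124761948 to 124901418, minus strand. ITGB3 (ENSG00000259207) lies on chromosome 17 from 47253846 to 47311816, plus strand, and ITGB8 (ENSG00000105855) on chromosome 7 from 20330702 to 20415754, plus strand. All 6 are protein coding, and the positions are those of the files' build, hg38. Genes that overlap them held few reads in any library: at most 84 counts for ITGB1-DT, the divergent transcript of ITGB1, and at most 10 for each other overlapping gene.

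Of the 6 members, 5 had an entry in the RefSeq promoter table (GRCh38.p14), with 9 starts in all. The 250 bases before each start were searched on both strands for GGAATG, the motif of TEAD factors, which act with YAP and TAZ. TGANTCA (AP-1), GGGCGG (Sp1) and TATAAA (the TATA box) were searched for as well. GGAATG occurred before a start of ITGA5 and of ITGB1, the pair that makes the main fibronectin receptor, and these stretches are shown because the courses of these partner chains are compared here. Each is the 30 bases centred on the match, with GGAATG in capitals.
ITGA5, chr12:54419331-54419360, minus strand: tccagggacccaGGAATGcccccccgccag
ITGB1, chr10:32958395-32958424, minus strand: cgcggcgggagaGGAATGcgtttccggagg
The matches lie 82 bases before the RefSeq start of ITGA5 and 182 bases before that of ITGB1. In GENCODE release 29 the whole ITGA5 stretch is 5′ UTR of the first exon, since that annotation starts the gene further upstream, and the ITGB1 stretch holds no exonic base. GGAATG was found in 11.9% of all 35116 promoter windows of this length, so a match is common. TGANTCA, found in 6.57% of all windows, was in no window of a member, and GGGCGG, found in 42.6%, was before a start of ITGA5, ITGB1, ITGB5 and ITGB8. TATAAA, found in 10.7%, had 3 matches before another start of ITGB1 than the one shown, and none in the other windows of members.

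Libraries held 13043529 to 27416335 counts. TPM2, the gene of the overexpressed protein, stood at 24.9 CPM (counts scaled to library depth) in attached EV and 3302 CPM in attached Tpm2.1 cells, and its lowest Tpm2.1 library (2461 CPM) was far above its highest EV library (46.1 CPM). The mesenchymal markers VIM, CD44, ZEB1 and AXL had at least 1179 counts in every library, SPARC at most 17, and the luminal markers ESR1, PGR and CDH1 at most 28, whereas the luminal or epithelial markers ERBB2 and EPCAM had 154 to 2119 and 56 to 247. Of 9 markers of other cells, PTPRC, CD3E, CDH5, ALB and HBB had at most 7 counts in any library, whereas PECAM1 reached 139, CD14 72, VWF 68 and ITGA2B 36. The summed FPKM of these 9 was 1.14 to 1.18 in attached EV cells and 3.75 to 3.80 in EV cells at 4 d, and their part in the results was not tested. The 2 libraries of the apoptotic fraction at 4 d stood apart: 18183 and 18676 genes had a count against 21275 to 24530 in the other 26 libraries, and 5.86% and 6.40% of counts were on the 13 mitochondrial mRNAs against 1.12% to 5.34%. The value without that time is therefore given as well for several of the means over the times.

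The β1 chain transcript was the most abundant of the 6 per length. Over the 28 libraries the deposited FPKM (fragments per kilobase of transcript, scaled for library depth, which allows genes to be compared) had a median of 106 for ITGB1, 28.5 for ITGA5, 24.3 for ITGAV, 17.1 for ITGB5, 1.23 for ITGB3 and 0.239 for ITGB8. ITGB3 and ITGB8 rest on few reads, 51 to 201 and 27 to 144 counts a library, and their errors are wide. Among the αv partners other than β1, ITGB5 made up 82.0% to 95.9% of the summed FPKM of ITGB3, ITGB5, ITGB6 and ITGB8 in every library, and ITGB6 reached at most 0.125 FPKM.

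**Figure D1:**
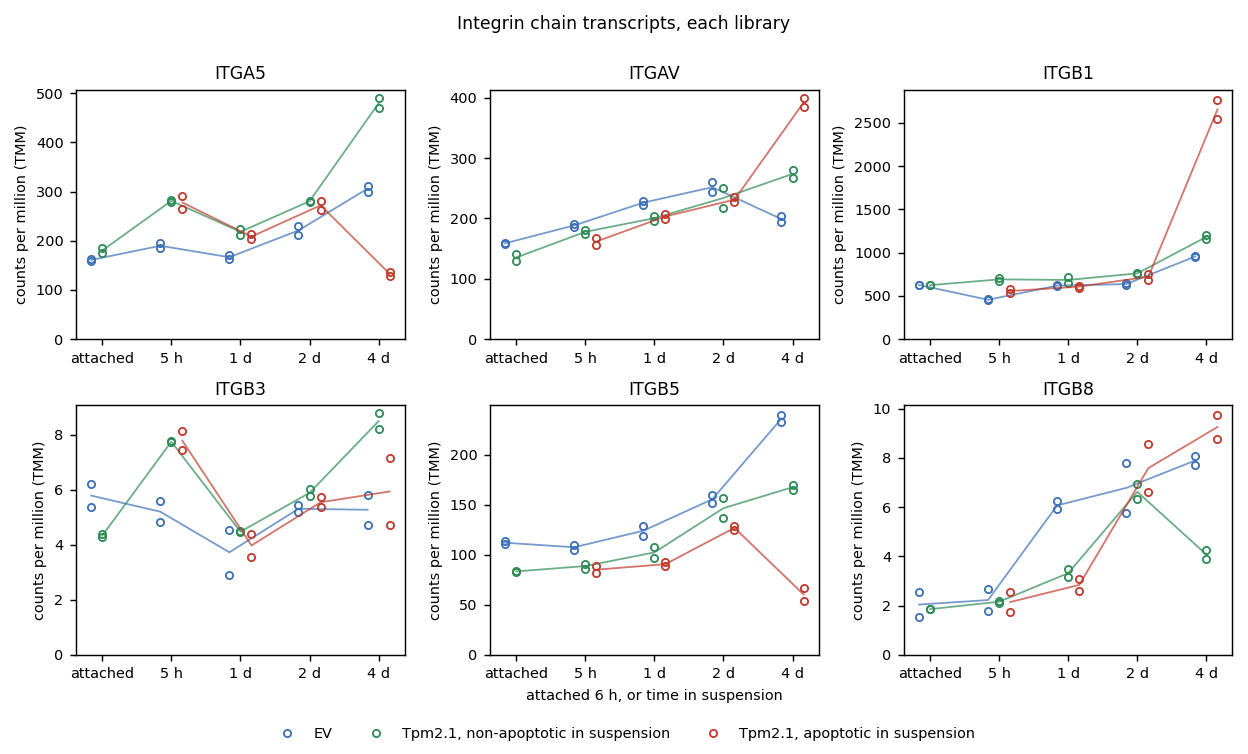
Transcript level of each chain in every library, in TMM-scaled CPM (vertical axes from 0, own scale per gene), against attachment or time in suspension. Circles are libraries and lines join group means. ITGB1 reaches 2543 and 2769 CPM in the apoptotic fraction at 4 d, where ITGA5 and ITGB5 are at their lowest.

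In attached cells, overexpression of Tpm2.1 went with slightly more ITGA5 and with less ITGAV and ITGB5. ITGB5, the vitronectin-binding partner of αv, stood at 114 and 110 CPM in EV and at 84.3 and 82.7 CPM in Tpm2.1 cells. ITGAV stood at 158 and 160 CPM in EV and at 130 and 140 CPM in Tpm2.1 cells. Both were higher in each EV library than in either Tpm2.1 library. The log2 fold change was -0.43 ± 0.07 (SE) for ITGB5 (adjusted p = 1.4e-05, edgeR quasi-likelihood test, n = 2 libraries a group here and throughout) and -0.23 ± 0.06 for ITGAV (adjusted p = 0.0039). ITGA5, at 164 and 158 CPM in EV and 175 and 186 CPM in Tpm2.1 cells, was 0.16 ± 0.06 higher (adjusted p = 0.038). So 3 of 6 members passed, 1 higher and 2 lower, beside 20.5% of all genes tested. ITGB1 stood at 628 and 623 against 625 and 621 CPM, a difference of -0.01 ± 0.06, and ITGB3 (-0.42 ± 0.18, adjusted p = 0.11) and ITGB8 (-0.13 ± 0.26) did not pass. The ITGA5 call was lost when any 1 of the 4 attached libraries was left out (0.12 to 0.20), and without the first attached Tpm2.1 library ITGAV was at -0.18 with an adjusted p of 0.11. In the same contrast 11 of 13 mitochondrial mRNAs (median 0.38) and 4 of 7 tested long noncoding RNAs (median 0.49) were higher in Tpm2.1 cells. These 7 came from a list chosen as signs of RNA quality: MALAT1, NEAT1, KCNQ1OT1, MEG3, SNHG14, OIP5-AS1, TUG1 and NORAD. The part of both sets in these differences was not tested.

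In EV cells, suspension went with more ITGA5, ITGAV, ITGB5 and ITGB8 transcript, and the fibronectin chains α5 and β1 took different courses. The share of all genes called against attached cells in this line was 54.7% at 5 h, 63.0% after 1 d, 64.6% after 2 and 59.5% after 4 d. ITGA5, whose product is the specific α chain of the fibronectin receptor, stood at 185 and 195 CPM at 5 h, 162 and 171 at 1 d, 212 and 230 at 2 d and 312 and 300 at 4 d. It was near its attached level at 1 d and highest at 4 d, with no overlap between 4 d and any other EV group. Against attached cells the change was 0.24 ± 0.06 at 5 h, 0.46 ± 0.06 at 2 d and 0.93 ± 0.06 at 4 d (adjusted p = 0.00067, 8.3e-09 and 5.3e-17), and 0.05 ± 0.06 at 1 d, which did not pass.

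ITGAV, the α chain shared by the vitronectin receptors, peaked earlier. Its libraries held 191 and 186 CPM at 5 h, 229 and 223 at 1 d, 244 and 260 at 2 d and 204 and 194 at 4 d. Every suspended EV library was above both attached ones, and the 4-day libraries were below those of 1 and 2 d. The changes were 0.25 ± 0.06, 0.51 ± 0.06, 0.67 ± 0.06 and 0.33 ± 0.06 in time order, and all 4 passed.

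ITGB1, the common partner of α5 and many other α chains, first fell. EV libraries held 449 and 460 CPM at 5 h, below all 26 other libraries, then 613 and 622 at 1 d, 645 and 626 at 2 d and 952 and 959 at 4 d. The change from attached cells was -0.46 ± 0.06 at 5 h (adjusted p = 8.1e-09) and 0.61 ± 0.06 at 4 d (adjusted p = 3.8e-12), with -0.02 ± 0.06 and 0.02 ± 0.06 between. Its mean over the 4 times, 0.04 ± 0.04, hides this turn, and without 4 d it was -0.15 with an adjusted p of 0.0036.

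ITGB5 followed ITGA5 at the late times. It went from 105 and 110 CPM at 5 h through 129 and 119 at 1 d and 152 and 160 at 2 d to 240 and 232 at 4 d, the highest ITGB5 level of all 14 groups. The change from attached EV cells passed at 2 d (0.47 ± 0.07) and 4 d (1.08 ± 0.07, adjusted p = 1.1e-16). ITGB8, which encodes a β chain known for activating latent TGF-β with αv, stood at 2.55 and 1.53 CPM in attached EV cells and at 2.67 and 1.78 at 5 h, then at 6.23 and 5.91 at 1 d, 5.77 and 7.79 at 2 d and 8.09 and 7.70 at 4 d. All libraries from 1 d on were above all earlier ones, and the log2 change was 1.57 ± 0.23, 1.74 ± 0.23 and 1.95 ± 0.23 at these times. ITGB3, the other vitronectin-binding β chain, did not follow: its change was between -0.12 ± 0.19 and -0.15 ± 0.19 at 5 h, 2 and 4 d, and -0.67 ± 0.20 at 1 d (adjusted p = 0.0038), where the libraries held 4.55 and 2.90 CPM. Without the second of these the value was -0.35 and did not pass. Over the mean of the 4 times 4 of 6 members were higher in suspension and none was lower, beside 34.2% of all genes higher and 66.3% called in either direction. Without 4 d 5 members passed, and 11381 of 17191 genes did. The means were 0.42 ± 0.05 for ITGA5, 0.44 ± 0.05 for ITGAV, 0.41 ± 0.06 for ITGB5 and 1.35 ± 0.20 for ITGB8. Over the same mean 13 of 13 mitochondrial mRNAs (median 0.66) and 6 of the 7 long noncoding RNAs (median 0.86) were higher in suspended EV cells. At 4 d 10 of 13 mitochondrial mRNAs were instead lower (median -0.56). The part of both sets in the members' changes was not tested.

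In non-apoptotic Tpm2.1 cells all 6 members were higher in suspension over the mean of the 4 times, beside 30.8% of all genes higher and 61.4% called in either direction. At the single times 45.2%, 54.8%, 56.8% and 62.4% of all genes were called, from 5 h on. The median change of the 6 was 0.63 against 0.03 over all genes tested. In the same contrast 12 of 13 mitochondrial mRNAs were lower (median -0.71) and 3 of the 7 long noncoding RNAs higher (median 0.06). The part of both sets in the members' changes was not tested. ITGA5 stood at 279 and 283 CPM at 5 h, 224 and 212 at 1 d, 282 and 279 at 2 d and 489 and 470 at 4 d, the highest ITGA5 level of the 14 groups. Each suspended library was above both attached Tpm2.1 libraries, and 1 d was below 5 h (-0.37 ± 0.06, beside 40.8% of all genes called), as in EV cells (-0.19 ± 0.06, beside 39.4%). The change was 0.64 ± 0.06, 0.28 ± 0.06, 0.64 ± 0.06 and 1.41 ± 0.06 in time order. ITGAV rose at each time, from 0.39 ± 0.06 at 5 h to 1.02 ± 0.06 at 4 d, where it held 267 and 281 CPM.

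The β chains of these cells were at their highest suspended level at 4 d except ITGB8. ITGB1 held 704 and 676 CPM at 5 h, 723 and 644 at 1 d, 751 and 768 at 2 d and 1160 and 1205 at 4 d. The first 2 times were close to the attached level. The changes of 0.15 ± 0.06 at 5 h and 0.13 ± 0.06 at 1 d passed in 0 and 1 of the 4 fits that left out 1 library (0.12 to 0.17 and 0.04 to 0.21), whereas 0.29 ± 0.06 at 2 d and 0.92 ± 0.06 at 4 d passed in all of them. ITGB5 held 86.3 and 91.3 CPM at 5 h and 170 and 165 at 4 d, a change of 1.01 ± 0.07 (adjusted p = 1.3e-15). ITGB3 was 4.39 and 4.27 CPM in attached Tpm2.1 cells, 7.74 and 7.76 at 5 h, 4.47 and 4.48 at 1 d, 5.77 and 6.01 at 2 d and 8.22 and 8.77 at 4 d. It was thus high at 5 h and at 4 d (0.84 ± 0.18 and 0.97 ± 0.19, adjusted p = 0.00017 and 2.1e-05), and at 1 d the difference was 0.05 ± 0.20. The value at 2 d, 0.44 ± 0.19, passed with all libraries and in no fit that left out 1 of 4. ITGB8 peaked at 2 d with 6.92 and 6.32 CPM (1.83 ± 0.23) and was at 3.90 and 4.24 CPM at 4 d (1.13 ± 0.25).

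**Figure D2:**
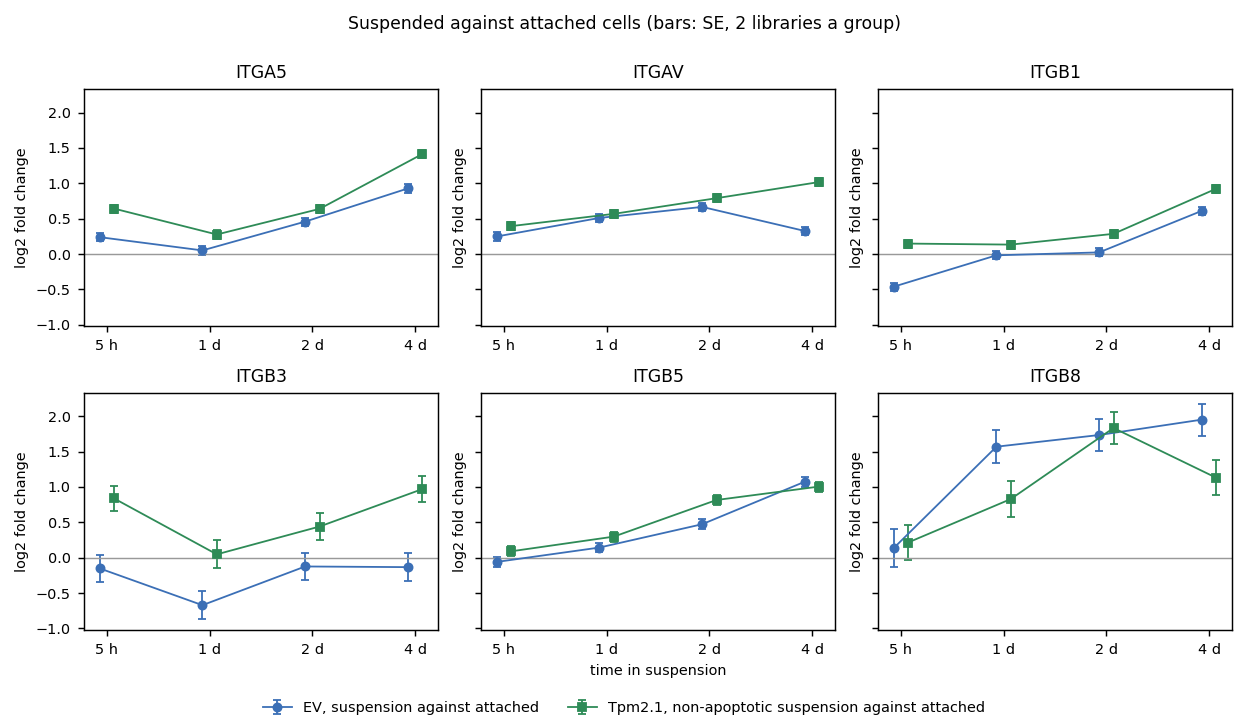
Log2 fold change of each chain in suspended against attached cells of the same line at 4 times, for EV cells (blue circles) and non-apoptotic Tpm2.1 cells (green squares), with standard errors from the edgeR fit. The ITGA5 and ITGB1 points of the Tpm2.1 series lie above those of EV cells at each time, and ITGB3 reaches 0.97 in that series at 4 d.

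The change on suspension differed between the lines for 4 of 6 members, tested as the difference of the 2 changes over the mean of the 4 times, beside 33.5% of all genes called and 17.0% higher. It was larger in Tpm2.1 cells by 0.32 ± 0.06 for ITGA5 (adjusted p = 0.00012), 0.33 ± 0.06 for ITGB1 (adjusted p = 6.0e-05), 0.84 ± 0.21 for ITGB3 (adjusted p = 0.0017) and 0.26 ± 0.07 for ITGAV (adjusted p = 0.0026). For ITGAV this rested on 4 d: without that time it was 0.11 and did not pass, and without the first attached Tpm2.1 library it was 0.21 with an adjusted p of 0.056. ITGB5 (0.14 ± 0.08) and ITGB8 (-0.35 ± 0.28) did not pass, and without 4 d ITGB5 did (0.22, adjusted p = 0.034). Each of these values is the line difference in suspension minus that in attached cells. The attached difference was 0.16 for ITGA5, -0.23 for ITGAV, -0.01 for ITGB1 and -0.42 for ITGB3, the last not passing. At single times ITGB1 differed by 0.61 ± 0.08 at 5 h, when it fell in EV cells (beside 28.8% of all genes called), and ITGAV by 0.69 ± 0.08 at 4 d (beside 28.4%). The same contrast was negative for all 13 mitochondrial mRNAs (median -1.35) and for 6 of the 7 long noncoding RNAs (median -0.58). The part of RNA quality or handling in the members' differences was not tested.

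Between the lines in suspension, ITGA5 was higher in non-apoptotic Tpm2.1 than in EV cells at every time, and ITGB5 was lower at 3 of 4 times. The ITGA5 difference was 0.57 ± 0.06 at 5 h, 0.39 ± 0.06 at 1 d, 0.34 ± 0.06 at 2 d and 0.65 ± 0.06 at 4 d, with both Tpm2.1 libraries above both EV libraries each time. ITGB1 was higher at each time as well, by 0.60, 0.14, 0.26 and 0.31, of which the value at 1 d passed in 1 of the 4 fits that left out a library (0.06 to 0.23). ITGB3 was higher at 5 h (0.57 ± 0.19) and 4 d (0.69 ± 0.19). The 5 h call was lost without the second EV (0.48, adjusted p = 0.12) or the second non-apoptotic library (0.58, adjusted p = 0.052) of that time, and the 4 d call without the first EV library (0.54, adjusted p = 0.077). ITGB5 was lower, at -0.28 ± 0.07 at 5 h, -0.27 ± 0.07 at 1 d and -0.50 ± 0.07 at 4 d, and at 2 d it was at -0.08 ± 0.07. The ITGB5 call at 1 d was lost without the first EV (-0.22) or the first Tpm2.1 library (-0.20). ITGB8 was lower at 1 d (-0.87 ± 0.22) and 4 d (-0.95 ± 0.22). ITGAV was at -0.17 ± 0.06 at 1 d, a value that passed in 1 of 4 fits without a library (-0.20 to -0.14), and at 0.46 ± 0.06 at 4 d. Over the mean of the times 3 members were higher and 2 lower, beside 60.5% of all genes called, and at single times 40.9%, 40.0%, 44.4% and 43.9% were called. Without 4 d 6 members passed, ITGAV then at -0.12, and 10190 of 17191 genes did. The 13 mitochondrial mRNAs were lower in the non-apoptotic cells over that mean (median -0.94), and these comparisons share the EV or the Tpm2.1 libraries with those above.

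Up to 2 d the apoptotic and the non-apoptotic fraction of Tpm2.1 cells differed in a minor share of all genes. The share among these chains was near it. At each of 5 h, 1 d and 2 d 1 of 6 members passed, beside 21.4%, 19.3% and 16.6% of all genes. At 5 h it was ITGB1, with 535 and 576 CPM in apoptotic against 704 and 676 in non-apoptotic cells, a log2 fold change of -0.31 ± 0.06 (adjusted p = 0.00013). The 2 fractions did not overlap for ITGB1 at 5 h. With a trend of count on GC content removed from each library, this difference was -0.18 (adjusted p = 0.022). Relative to the median of all genes it was -0.18 as well. At 1 d ITGB1 was again lower, at -0.17 ± 0.06 (adjusted p = 0.028), but not when the first non-apoptotic library (-0.09) or the second apoptotic library (-0.15) was left out. At 2 d ITGB5 was lower, at -0.21 ± 0.07 (adjusted p = 0.032), with 125 and 129 against 157 and 136 CPM, and without the first non-apoptotic library (-0.10) or the first apoptotic library (-0.19) it did not pass. ITGA5, at 264 and 291 against 279 and 283 CPM at 5 h, differed by -0.02 ± 0.06 there, -0.06 ± 0.06 at 1 d and -0.04 ± 0.06 at 2 d. All 13 mitochondrial mRNAs were higher in the apoptotic fraction at these 3 times (medians 1.62, 1.54 and 1.36), and their part in the ITGB1 and ITGB5 differences was not tested. In such bulk samples fewer cells with a transcript and less of it in each cell cannot be told apart.

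When 4 d had passed, all 6 members differed between the fractions, 3 higher and 3 lower, beside 72.1% of all genes. ITGA5 fell to 129 and 137 CPM in apoptotic cells against 489 and 470 in non-apoptotic cells (-1.85 ± 0.06, adjusted p = 4.7e-26). ITGB5 fell to 67.3 and 53.6 against 170 and 165 CPM (-1.47 ± 0.08, adjusted p = 1.6e-19). Both are the lowest levels of these genes in any group.

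ITGB1 instead rose to 2543 and 2769 against 1160 and 1205 CPM (1.17 ± 0.06, adjusted p = 9.0e-21), and ITGAV to 385 and 400 against 267 and 281 CPM (0.52 ± 0.06, adjusted p = 3.7e-10). ITGB8 held 8.78 and 9.72 against 3.90 and 4.24 CPM (1.18 ± 0.22, adjusted p = 1.2e-05). For ITGA5, ITGAV, ITGB1, ITGB5 and ITGB8 the 2 fractions did not overlap. ITGB3, with 7.15 and 4.72 against 8.22 and 8.77 CPM (-0.51 ± 0.20, adjusted p = 0.022), did not pass without the second apoptotic (-0.29) or the second non-apoptotic library (-0.50), and was -0.90 without the first apoptotic one.

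At 4 d the direction of the 6 differences ran with the base composition of the transcripts. What part base composition has in these directions was not tested. The longest transcript holds 54.5% G and C for ITGA5, 54.3% for ITGB5 and 52.3% for ITGB3, the 3 that were lower, and 40.0% for ITGB1, 38.3% for ITGAV and 37.8% for ITGB8, the 3 that were higher. With a trend of count on GC content removed from each library, the 4-day differences became -1.27 for ITGA5, -0.93 for ITGB5, -0.25 for ITGB3, 0.09 for ITGB1, -0.66 for ITGAV and -0.02 for ITGB8, while the median over all genes moved to -0.30. Relative to that median ITGA5 was at -0.97, ITGB5 at -0.62, ITGB3 at 0.06, ITGB1 at 0.39, ITGAV at -0.36 and ITGB8 at 0.29. ITGA5 and ITGB5 were thus lower on both scales, ITGAV turned, and ITGB1, ITGB3 and ITGB8 no longer passed (adjusted p = 0.14, 0.29 and 0.95). Over all genes the correction moved the calls at 4 d from 6065 higher and 6325 lower to 2737 higher and 7392 lower. All but 1 of the 13 mitochondrial mRNAs passed as higher in the apoptotic cells at 4 d (median 2.07), and 6 of the 7 long noncoding RNAs did (median 0.85).

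**Figure D3:**
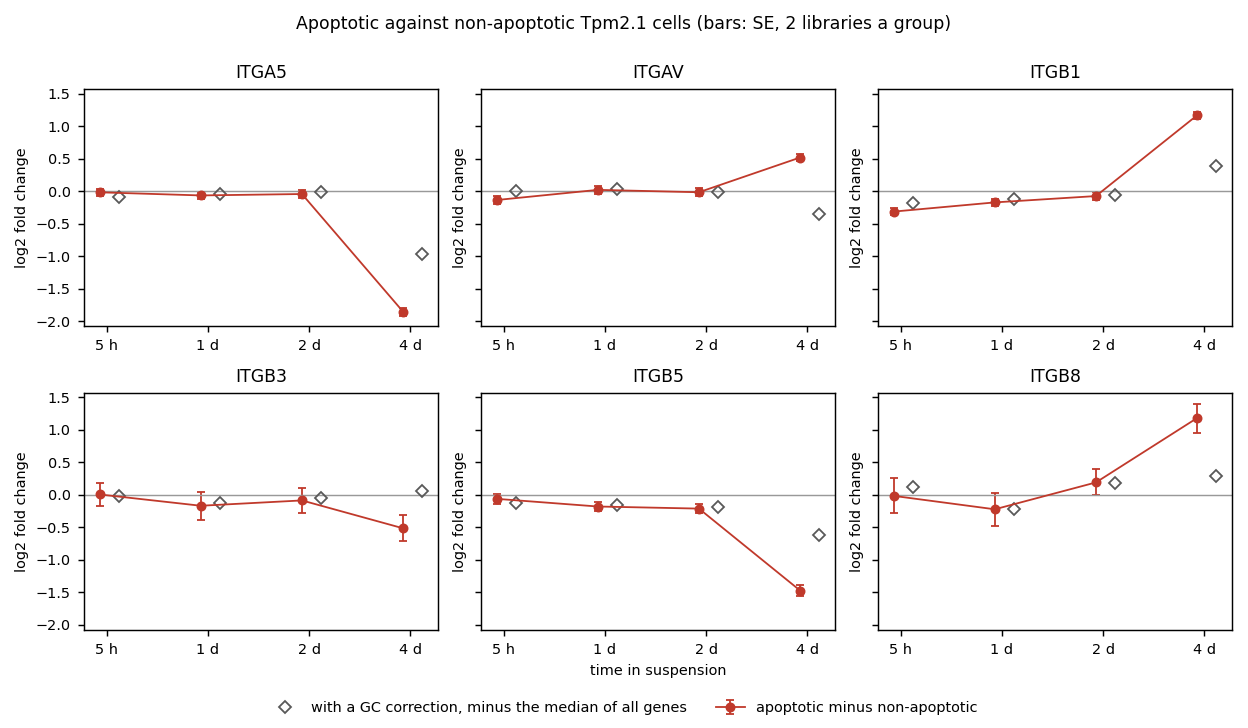
Log2 difference between apoptotic and non-apoptotic Tpm2.1 cells for each chain at 4 times (red circles, standard errors from the edgeR fit), and the same difference with a GC correction, relative to the median of all genes (open diamonds). Differences are small to 2 d, and at 4 d ITGA5 and ITGB5 are low by either measure.

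The fraction difference itself changed from 5 h to 4 d for 5 of 6 members, beside 66.9% of all genes: by -1.84 ± 0.08 for ITGA5, -1.41 ± 0.11 for ITGB5, 1.48 ± 0.08 for ITGB1, 0.65 ± 0.08 for ITGAV and 1.20 ± 0.35 for ITGB8. With the GC correction the median of all genes was at -0.36, ITGA5 at -1.19, ITGB5 at -0.80, ITGB1 at 0.26, ITGAV at -0.67 and ITGB8 at -0.15. Relative to that median ITGA5 was at -0.83, ITGB5 at -0.44, ITGB1 at 0.62, ITGAV at -0.31 and ITGB8 at 0.21, so the sign of ITGAV was the other way on both scales and that of ITGB8 only on the first. ITGB8 was at 0.83 and did not pass without the second apoptotic library of 5 h. Over the mean of the 4 times ITGAV, ITGB1 and ITGB8 were higher and ITGA5 and ITGB5 lower in the apoptotic fraction, beside 58.0% of all genes. ITGB8 (0.28 ± 0.12) lost its call without 12 of the 16 libraries in turn and ITGAV (0.10 ± 0.03) without 3, and without 4 d 2 members passed, both lower, ITGB1 at -0.19 and ITGB5 at -0.15. Against suspended EV cells, apoptotic Tpm2.1 cells had 3 members higher and 1 lower over the mean, beside 68.0% of all genes. There ITGA5 was at -0.01 with 4 d and at 0.39 without it, ITGAV at 0.12 and -0.17, and ITGB5 was the 1 lower member (-0.76 ± 0.04, and -0.36 without 4 d), with ITGB1 at 0.48 ± 0.03 (0.15 without 4 d) and ITGB3 at 0.24 ± 0.10. The ITGB3 call was lost without 10 of the 16 libraries in turn (0.14 to 0.31).

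The balance of the chains per length, in FPKM without a GC correction, differed between groups. The FPKM of ITGB1 was 4.91 ± 0.09 (SD) times that of ITGA5 in attached EV cells and 3.02 ± 0.06 times at 5 h in suspension. In the 26 libraries other than the apoptotic fraction at 4 d the ratio stayed between 2.49 and 4.97, and in that fraction it was 25.2 ± 0.43. ITGB5 over ITGAV was 0.900 ± 0.029 in attached EV cells, 0.787 ± 0.054 in attached Tpm2.1 cells and 1.51 ± 0.01 in EV cells at 4 d, the highest group, against 0.780 ± 0.044 in non-apoptotic Tpm2.1 cells and 0.197 ± 0.037 in apoptotic cells at that time. At 4 d the GC correction took the log2 fraction difference of ITGB1 from 1.17 to 0.09 and that of ITGA5 from -1.85 to -1.27. It took ITGB5 from -1.47 to -0.93 and ITGAV from 0.52 to -0.66. The part of GC content in the ratios of the apoptotic fraction was not tested. ITGA5 over ITGAV was 1.10 ± 0.04 in attached EV and 1.44 ± 0.02 in attached Tpm2.1 cells, and 1.90 ± 0.12 in non-apoptotic cells at 4 d. Relative to the summed FPKM of 12 α partners of β1, ITGB1 was 0.554 and 0.559 in the attached EV libraries, and the chains ITGA2 and ITGA3 together filled more of that sum than ITGA5 and ITGAV in every group. ITGA5 made up 2.83% to 14.4% of it and ITGAV 5.06% to 10.5% in any library.

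**Figure D4:**
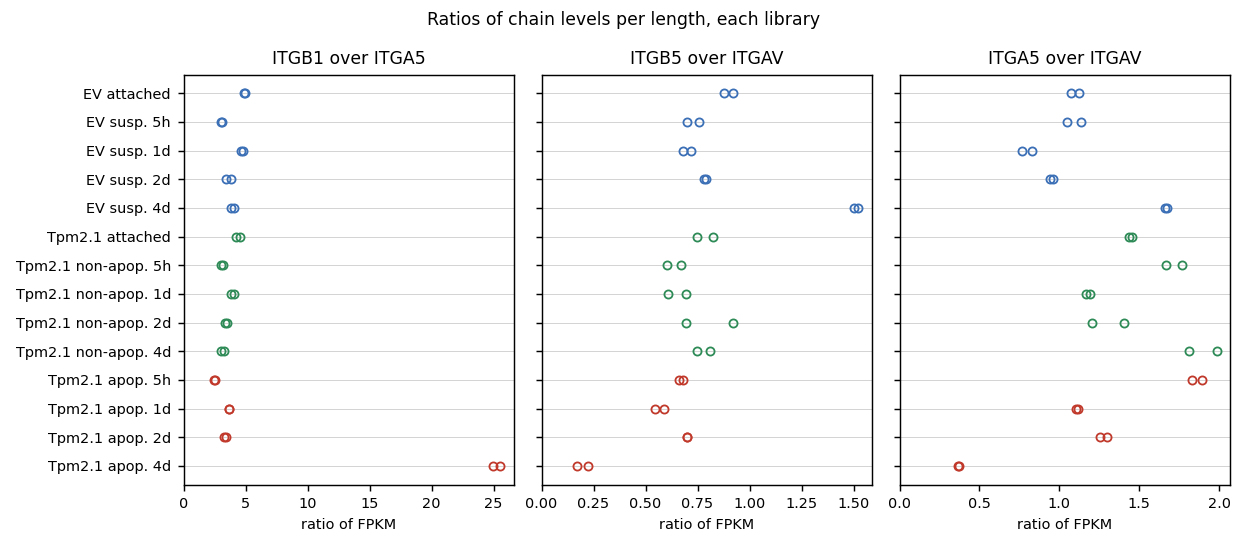
Ratios of deposited FPKM between chains in each library (circles), by group, on linear axes from 0. No GC correction is applied. The ITGB1 to ITGA5 ratio of the apoptotic fraction at 4 d has a mean of 25.2, and ITGB5 over ITGAV is highest in EV cells at 4 d.

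Ordered by mean CPM over the 14 groups, ITGB1 ran from 454 CPM in EV cells at 5 h to 2656 in apoptotic cells at 4 d, a 5.85-fold span, and the 8 groups from non-apoptotic 2 d (759) down to EV 1 d (618) each overlapped the next. ITGA5 ran from 133 CPM in apoptotic cells at 4 d to 480 in non-apoptotic cells at 4 d (3.62-fold), and the groups between 281 and 272 CPM, 4 Tpm2.1 groups in suspension at 5 h and 2 d, overlapped. ITGAV spanned 2.90-fold with attached Tpm2.1 cells lowest (135 CPM), ITGB5 3.91-fold, ITGB8 4.99-fold with attached Tpm2.1 cells lowest (1.86 CPM) and ITGB3 2.28-fold. The same groups were highest and lowest for each member when ranked by FPKM, which rescales the same counts and is no separate evidence.

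ITGA5 and ITGB1, partners in the fibronectin receptor, had a Pearson correlation of -0.04 over the 14 group means of log2 CPM and 0.78 over the 13 groups without apoptotic cells at 4 d. ITGAV and ITGB5 went from 0.03 to 0.64 and ITGB5 and ITGB8 from 0.40 to 0.80, whereas ITGAV and ITGB8 were at 0.79 and 0.76. These values describe groups that share libraries' depth and handling, and carry no test. Of 10492 protein-coding genes, those with the most similar pattern to ITGB1 over 14 groups were CTTNBP2NL (0.99), UBE2Q2 (0.98) and CCDC50 (0.98), and to ITGAV CLCN3, BICD1 and ZDHHC17 (all 0.96). For ITGA5 they were CMTM3 (0.90), P4HB (0.90), which encodes protein disulphide isomerase, and SEMA4B (0.89). For ITGB5 they were B3GNT9, TMEM127 and TK2 (each 0.95), for ITGB8 SVIL (0.95), PPP1R9A (0.93) and MAGI1 (0.92), and for ITGB3 ADAM19 (0.82), KDELR2 (0.76) and TMBIM6 (0.75). Of these 18 genes 3 were also among the nearest 3 over 13 groups: ZDHHC17, CTTNBP2NL and SVIL.

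The genes around these receptors moved in both directions on suspension. Of 39 tested genes of integrin activation, tail adaptors and signalling, 28 were lower and 3 higher in suspended EV cells over the mean of the 4 times (median -0.29 against 0.06 over all genes), beside 66.3% of all genes called. In non-apoptotic Tpm2.1 cells 24 were lower and 7 higher (median -0.36 against 0.03), beside 61.4% called. The focal adhesion linkers ACTN4 (-1.06 ± 0.04), ACTN1 (-0.85 ± 0.04) and VCL, vinculin (-0.82 ± 0.04), and the caveolar protein gene CAV1 (-1.27 ± 0.04) were among those lower in EV cells, and FLNA, filamin A, was lower in Tpm2.1 cells (-0.96 ± 0.04). In the same cells NUMB, an endocytic adaptor of integrins, was higher (1.24 ± 0.05). In the same EV contrast 4 of the 6 members were higher and none was lower, and the difference between the lists was not tested.

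Of 23 tested ligands of these integrins, 11 were higher and 9 lower in suspended EV cells (66.3% of all genes called) and 16 were higher and 7 lower in non-apoptotic Tpm2.1 cells (61.4%). The matricellular ligands CTGF (-4.31 ± 0.05), CYR61 (-4.05 ± 0.05) and THBS1, thrombospondin 1 (-2.04 ± 0.05), had the smallest p in EV cells, and LTBP1, which tethers latent TGF-β, rose (1.88 ± 0.06). CTGF (-3.80 ± 0.05), CYR61 (-3.71 ± 0.05) and THBS1 (-3.26 ± 0.05) led in Tpm2.1 cells, with LTBP3 at 1.88 ± 0.06. SPP1, osteopontin, a ligand of αv integrins, was 5.82 ± 0.25 higher in non-apoptotic Tpm2.1 than in EV cells over the mean of the times, and PLAU, urokinase, 0.91 ± 0.04.

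Of 11 tested chains of other integrins, 7 were higher and 2 lower in suspended EV cells (median 1.05), beside 66.3% of all genes called. The collagen- and laminin-receptor chains ITGA2 (3.10 ± 0.06), ITGA10 (5.65 ± 0.18), ITGA1 (1.52 ± 0.08) and ITGB4 (3.19 ± 0.19) led, beside a highest member value of 1.35 for ITGB8. In non-apoptotic Tpm2.1 cells 6 were higher and 3 lower, beside 61.4%. Of 21 tested genes of integrin endocytosis and recycling, 6 were higher and 9 lower in EV cells and 9 higher and 7 lower in Tpm2.1 cells, again beside 66.3% and 61.4% of all genes called. RAB11FIP1, a Rab11 effector of recycling, was at -1.61 ± 0.06 and -1.45 ± 0.06. At 4 d 22 of 39 adaptor and signalling genes were lower and 14 higher in the apoptotic than in the non-apoptotic fraction, beside 72.1% of all genes called, a contrast in which the GC correction moved the calls of all genes from 6065 higher and 6325 lower to 2737 and 7392. Those lower were led by FLNA (-2.57 ± 0.06), BCAR1 (-3.37 ± 0.08), RACK1 (-1.92 ± 0.06) and PXN, paxillin (-1.71 ± 0.06), and the α3 chain transcript ITGA3 was lower there (-2.14 ± 0.05) while ITGA1 (1.15 ± 0.07) and ITGA6 (1.07 ± 0.07) were higher.

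**Figure D5:**
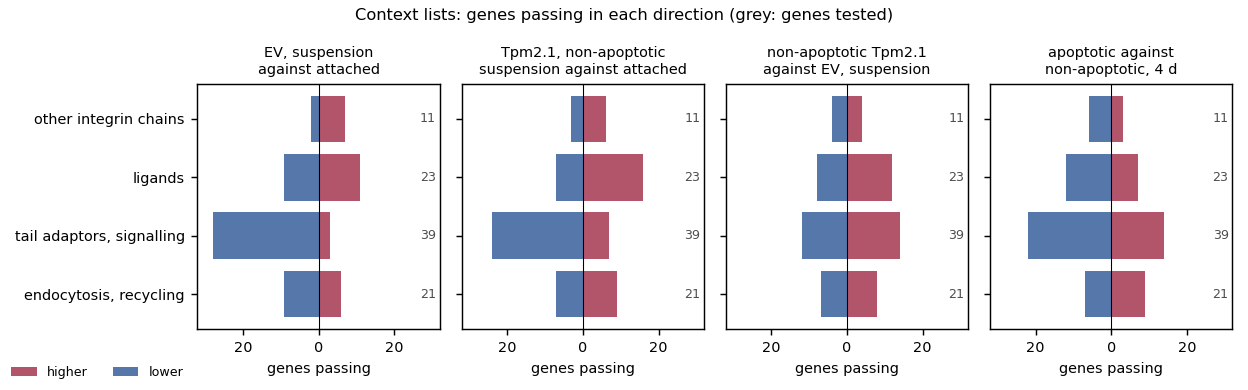
Number of genes higher (right, red) and lower (left, blue) past an adjusted p of 0.05 in 4 lists of integrin-related genes, for 4 comparisons. Grey numbers are the genes tested in each list, and 28 of 39 adaptor and signalling genes are lower in suspended EV cells.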

How the data were processed

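RNA of 28 libraries was selected on poly-T beads and randomly primed, per the labels' protocols. The authors deposited whole-number counts per gene and FPKM values. The submitters' processing notes name hg38 and DESeq2; for aligner, counter and strand, the sources used here give nothing. Identifiers and coordinates of 58724 of 58735 genes matched GENCODE release 29, and 23006 genes had no count. The fit across genes used edgeR 4.0.16 (R 4.3.3, TMM, filterByExpr, quasi-likelihood F test, 1 mean per group over all libraries): 17191 genes were tested with 14 residual degrees of freedom. Adjusted p-values are Benjamini-Hochberg values over all genes of a contrast, with 0.05 as threshold. SE is the absolute log2 fold change over the square root of F. CPM compares a gene between groups, FPKM compares genes. Alternatives were DESeq2 1.42.0, its size factors, no filter, protein-coding genes, a comparison's libraries alone, a replicate block, a GC correction, means without 4 d and leaving out each library. The members and lists were chosen with earlier results of these data known. The members, TPM2, markers and the long noncoding RNAs taken as signs of RNA quality were named. Besides them, the 3 genes of most similar pattern and, per list, genes among the 4 of smallest p were named, all reaching 10 CPM. The procedure was tested on simulated counts with known changes in attached Tpm2.1 cells alone and the same spread in every group. That test does not cover the comparisons of suspended groups or fractions.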

Additional observations from a re-analysis of the deposited data

Results flagged for a closer look

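Tests of a difference between 2 effects passed for 9 values (edgeR's quasi-likelihood test). The change on suspension was larger in Tpm2.1 than in EV cells for ITGA5 (0.32), ITGAV (0.26), ITGB1 (0.33) and ITGB3 (0.84), on the log2 scale over the mean of 4 times. For ITGAV this rested on 4 d, and without the first attached Tpm2.1 library it was 0.21. These values also hold the line difference of attached cells, -0.23 for ITGAV and -0.42 for ITGB3, where the latter did not pass. Bead handling and line cannot be told apart in these values, nor can library preparation and attachment. The difference between apoptotic and non-apoptotic cells changed from 5 h to 4 d by -1.84 for ITGA5, 0.65 for ITGAV, 1.48 for ITGB1, -1.41 for ITGB5 and 1.20 for ITGB8. With the GC correction these became -1.19, -0.67, 0.26, -0.80 and -0.15 while the median of all genes moved to -0.36, and relative to that median they were at -0.83, -0.31, 0.62, -0.44 and 0.21.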

How the results depend on the processing

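Of 149 log2 differences of the members, the replicate block changed the side or direction of 0. No pairing of samples by library number was seen: over 91 pairs of groups the correlation of deviations was -0.075 to 0.054. These pairs include the apoptotic and non-apoptotic fractions of each time, and a weak pairing could go unseen. With the block 3494 genes passed between attached lines, against 3516. DESeq2, its size factors in edgeR, no filter, protein-coding genes, the libraries of a comparison alone and the GC correction ended 3, 3, 8, 4, 5 and 11 calls, 4 of the last with the sign reversed. In all, the GC correction changed the sign of 12 of the 149 values. Calls that passed on the other side are not among those ended. They were ITGAV (fractions at 4 d and mean, change of the fraction difference, apoptotic against EV at 4 d and mean) and ITGB1 (fractions, mean). The cause of these changes was not tested, except that fewer samples or genes enter some fits.

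The GC correction moves the median of all genes, so each value that changed sign is given with its value relative to that median. ITGAV was at -0.66 (relative -0.36, fractions at 4 d), -0.17 (-0.08, fractions, mean), -0.67 (-0.31, change of the fraction difference), -0.24 (-0.13, apoptotic against EV, mean) and -0.069 (-0.03, non-apoptotic against EV, mean, from 0.02), where both differ in sign from the uncorrected value. ITGA5 (apoptotic against EV, mean) was at 0.17 (0.27) and ITGB5 (apoptotic 4 d against 5 h, from -0.49) at 0.093 (0.43), again on both scales. ITGAV at -0.0083 (0.33, apoptotic 4 d against 5 h, from 1.28) and -0.33 (0.0091, apoptotic against EV at 4 d, from 0.98), ITGB8 at -0.018 (0.29, fractions at 4 d) and -0.15 (0.21, change of the fraction difference) and ITGB1 at -0.079 (0.0072, fractions, mean) changed sign on the corrected scale but not relative to the median. Over all genes it moved the calls from 4404 higher and 5569 lower to 2649 and 6336 for the mean fraction difference, and from 5373 and 6319 to 3732 and 7035 for apoptotic against EV cells.

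Without 4 d the means were 0.39 for ITGA5 and -0.17 for ITGAV (apoptotic against EV), -0.12 for ITGAV (non-apoptotic against EV), -0.043 for ITGAV, -0.19 for ITGB1 and -0.014 for ITGB8 (fractions) and -0.15 for ITGB1 (suspended EV). Then 7731 genes passed for apoptotic against EV cells (11692 with it) and 6612 for the fractions (9973), with 2 members (5). Without the filter 3 members passed there. With the libraries of the comparison alone 5440 genes passed between attached lines. Near 0, ITGB1 turned to 0.00468 (libraries of the comparison alone) and 0.0084 (protein-coding genes) between attached lines and to -0.0021 (DESeq2), -0.0021 (its size factors) and -0.030 (no filter) in suspended EV cells, and ITGA5 to 0.015 (protein-coding genes, apoptotic against EV).

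Leaving out 1 library, 2028 to 2188 genes and 1 to 2 members passed between attached lines, and 3 to 6 members for the mean fraction difference. ITGB8 was at -0.46 to 0.27 between attached lines, ITGA5 at -0.056 to 0.00021 (apoptotic against EV, mean) and ITGAV at -0.00056 to 0.050 (non-apoptotic against EV, mean). Of 1040 such values 77 lost their call. ITGB3 and ITGB8, with at most 201 and 144 counts a library, limit what can be seen.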
